A study of Homo sapiens with 4 samples.

Results

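The histone genes of the HIST clusters encode the linker histones H1 and the core histones H2A, H2B, H3 and H4 that package DNA into nucleosomes. They were taken as all gene names of the deposited tables that begin with HIST1 to HIST4 followed by one of the 5 family names, leaving out the names that end in PS and a digit, which mark pseudogenes. The pattern matched 84 of 39306 gene names, 10 of them were such pseudogenes with at most 14 reads in any library, and 74 genes remained. They comprised 6 H1, 16 H2A, 23 H2B, 15 H3 and 14 H4 genes. On GRCh38, 53 lie in the HIST1 cluster (chr6:25726909-27893843), 16 carry HIST2 names (chr1:121108210-149887916), 4 carry HIST3 names (chr1:228424845-228464626) and 1, HIST4H4, lies alone at chr12:14767999-14771131. The GENCODE annotation lists 6 of the 74 as pseudogenes although their names do not say so, and they were kept under the rule.

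Gene expression was measured in 4 RNA-seq libraries of the established human line MHCC97H, a hepatocellular carcinoma line of high metastatic capacity. Wild-type cells gave the 2 control libraries. The 2 knockdown libraries are from cells in which a short hairpin RNA targets HNRNPM, the gene of an RNA-binding splicing regulator. The labels name no hairpin in the control cells and do not say whether both knockdown libraries carry the same one, so effects of the hairpin itself and of lower HNRNPM cannot be told apart. Nor do they say whether the replicates were separate cultures, so a p-value here measures the spread between these particular libraries only, and that spread may be technical.

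Most histone genes of these clusters are replication-dependent: their mRNA accumulates while DNA is copied, lacks introns and, unlike nearly all other mRNAs, ends without a poly(A) tail. Its 3′ end instead follows a short stem-loop that is bound by the protein SLBP and cut with the help of the U7 small nuclear RNA. Ribosomal RNA was removed from total RNA before the libraries were made, so that RNA without a poly(A) tail could enter them. A smaller group of variant histone genes outside the clusters, such as H3F3A, makes polyadenylated mRNA throughout the cell cycle and is used here for comparison. Some cluster genes are also known to yield polyadenylated transcripts, and a gene-level value does not separate the forms.

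The stem-loop is the feature that sets these mRNAs apart, so its sequences are shown first. In GENCODE transcript models, a pattern of GG, 2 free bases, CTT, 1 free base, T, 1 free base, AG, 2 free bases and CC, with all 6 stem positions paired, was found for 35 of the 74 genes, and 106 of 206694 transcripts of all genes (0.0513%) held it. Without the pairing condition the pattern was present in 0.188% of transcripts on their own strand and in 0.228% on the opposite strand. A model that stops at the coding sequence cannot hold the stem-loop, and 31 of the 74 exon models did so. The 16 bases took 6 forms, given 5′ to 3′ with the 4 bases of the loop in capitals.
Form of 18 genes (6 H2A, 9 H2B and 3 H3): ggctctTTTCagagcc
Form of 5 genes (3 H2B and 2 H3): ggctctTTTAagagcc
Form of 5 genes (H4): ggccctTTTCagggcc
Form of 3 genes (H4): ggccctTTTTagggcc
Form of 3 genes (HIST1H2AG, HIST2H2BC and HIST2H2BD): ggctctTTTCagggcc
Form of HIST1H3E: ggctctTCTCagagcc
The stem differed by family, with one stem in the 8 H4 genes and another in most H2A, H2B and H3 genes.

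Values are RPKM, reads per kilobase of annotated exon in a library scaled to a fixed total. Levels of genes are ranked on this scale, and the most abundant gene is the one with the highest mean RPKM. The ranks depend on the annotated exon length. In control replicate 1, HIST1H4K had 188 RPKM from 1073 reads over 312 bp, and HIST2H4A 98.2 RPKM from 3376 reads over 1876 bp. HIST2H2BF likewise had more reads than HIST1H2BK, and HIST2H3C more than HIST1H3B. The controls had 18317579 and 19659106 assigned reads, the knockdown libraries 12708165 and 11498663. HNRNPM itself fell from 51.3 and 51.6 RPKM to 21.8 and 20.4 RPKM (log2 fold change -1.35 ± 0.07 SE, limma adjusted p = 0.0027). Of the hepatic lineage markers, 4 of 9 tested were called lower in knockdown cells, against 13.8% of all tested genes, and none was called higher. Their log2 fold changes ran from -1.72 for ALB to 0.83, with a median of -0.21. The summed level of the 10 listed markers went from 40.6 and 42.6 RPKM to 34.0 and 35.8 RPKM. The 4 epithelial markers summed to 880.5 and 787 RPKM in the controls and to 1079 and 1123 RPKM after knockdown. Among them the keratin KRT18 was called higher (log2 fold change 0.47), while KRT8 (0.26), EPCAM (0.83) and CDH1 (-0.20) were not called. The leukocyte marker PTPRC was at 0 in 3 of the 4 libraries. The 8 markers of other cell types summed to 55.2 and 67.1 RPKM in the controls, compared with 67.9 and 66.7 RPKM after knockdown, with CD68 alone at 46.4 to 61.6 RPKM. Of the 5 tested, the endothelial marker PECAM1 was lower (log2 fold change -0.63) and the collagen gene COL1A1 higher (0.84, at 0.133 RPKM or less in every library). The part of these shifts in the histone results was not tested.

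Histone genes were counted on overlapping and nearly identical sequences, which limits some single values. Where one gene's exons lay wholly inside another's, the outer gene had at least as many reads in every library for 143 of 143 same-strand and 242 of 243 opposite-strand cases. Reads on a shared stretch therefore entered both genes, whichever strand they came from. Exons of 16 histone genes overlapped those of another gene. HIST1H3J shares 346 bp with HIST1H2AM and had 1009, 994, 949 and 848 reads where HIST1H2AM had 1014, 998, 953 and 852, so the value listed for HIST1H3J cannot be told from that of its neighbour. HIST1H2AK lies wholly inside an exon model of HIST1H2BN on the opposite strand, and HIST1H3D wholly inside that of RP1-34B20.21. HIST2H2AA3 shares 100% of its 100-base words with HIST2H2AA4, HIST2H3A and HIST2H3C share 100% with each other, and HIST1H4K shares 100% with HIST1H4J. The treatment of reads that fit several copies is one of the steps not given in the sources used here, and pairs of copies are therefore also given as sums.

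Histone genes held a larger share of the reads in both HNRNPM-knockdown libraries than in either control. The 74 genes held 0.363% and 0.299% of assigned reads in the 2 controls against 0.489% and 0.484% after knockdown, a ratio of means of 1.47. The exact permutation p (two-sided) was 0.333, the smallest that 2 libraries against 2 can give. The controls lay further apart than the knockdown libraries. Of the 66 histone genes that could be tested, 64 had a higher level in control replicate 1 than in control replicate 2, with a median log2 difference of 0.33 against -0.02 over all genes. Between the knockdown replicates, 38 of 66 were higher in replicate 1, with a median log2 difference of 0.04. The ratio was 1.34 without control replicate 2 and 1.63 without control replicate 1.

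In each of the 5 families the share was also higher in both knockdown libraries than in either control. Levels of whole families are in CPM, counts scaled to a library total of 1000000. H4 genes together held 487 and 388 CPM in control cells against 769 and 719.6 in knockdown cells, a ratio of 1.70. H1 genes, whose proteins bind the DNA that links nucleosomes, held 566 and 512 against 826 and 821 CPM, a ratio of 1.53. For H2B genes the ratio was 1.52 (701 and 542 against 957 and 927) and for H3 genes 1.43 (550.3 and 427 against 689.6 and 704). The H3 sum includes HIST1H3J, whose reads cannot be told from those of the H2A gene HIST1H2AM. Without HIST1H3J the ratio over the histone genes of all families was 1.47. H2A genes held the largest part of the histone reads in every library, with 1329 and 1119 CPM in the controls, compared with 1645 and 1663 after knockdown, and had the lowest ratio, 1.35. Groups did not overlap for any family, and differences between the family ratios were not tested. The HIST1 cluster had a ratio of 1.49 and the HIST2 genes of 1.44, while the HIST3 genes together had only 15, 11, 11 and 9 reads.

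**Figure D1:**
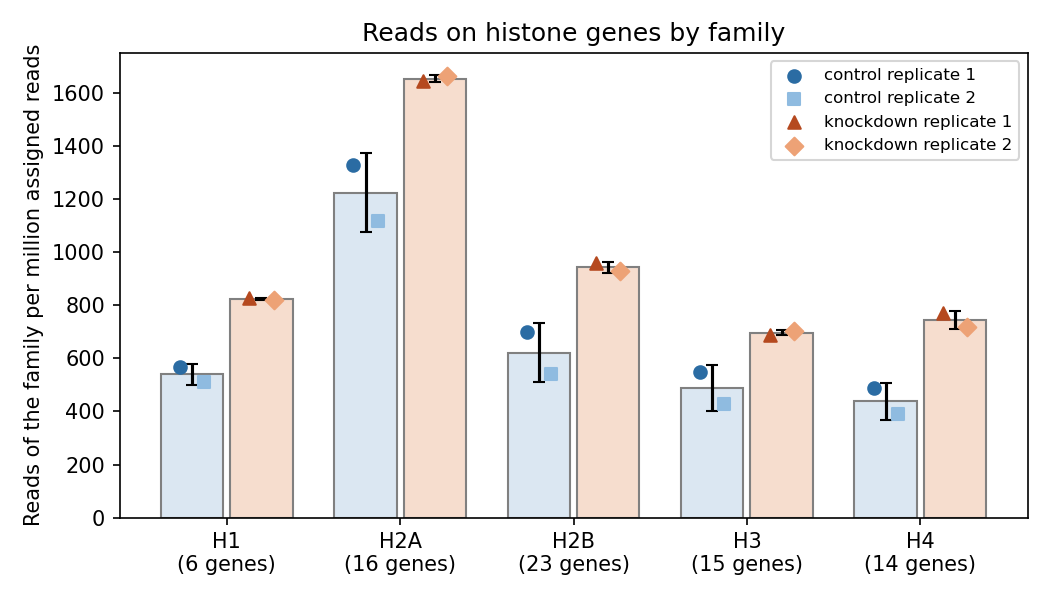
Summed CPM of each histone family (vertical axis) in the 5 families (horizontal axis). Bars are group means with the SD of 2 libraries and points are the single libraries; in all 5 families both knockdown points lie above both control points, and the control points lie further apart.

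Gene by gene, 33 of the 66 tested histone genes were higher in knockdown cells and 2 were lower (limma, adjusted p under 0.05 over all 20221 tested genes). Across all genes tested, 24.9% were called, 11.1% higher and 13.8% lower. Limma-voom on the recovered reads called 49 histone genes higher and 1 lower, against 16.2% and 19.6% of all genes. The log2 fold change was above 0 for 62 of the 66, against 46.9% of all genes, and its median was 0.50, against -0.03. Both knockdown libraries lay above both controls for 53 histone genes (30.7% of all genes) and below both for 3 (36.9% of all genes). The number of calls rested on single libraries: it was 52 without control replicate 1, 29 without control replicate 2, 13 without knockdown replicate 1 and 18 without knockdown replicate 2. With no filter on low values the number was 8. In each of the 4 fits that left out a library, 11 of the called genes were called, all higher: HIST1H1A, HIST1H1D, HIST1H3A, HIST1H4B, HIST1H4C, HIST1H4D, HIST1H4E, HIST1H4H, HIST1H4L, HIST2H2BE and HIST2H2BF. The median log2 fold change ranged from 0.31 without control replicate 2 to 0.65 without control replicate 1.

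**Figure D2:**
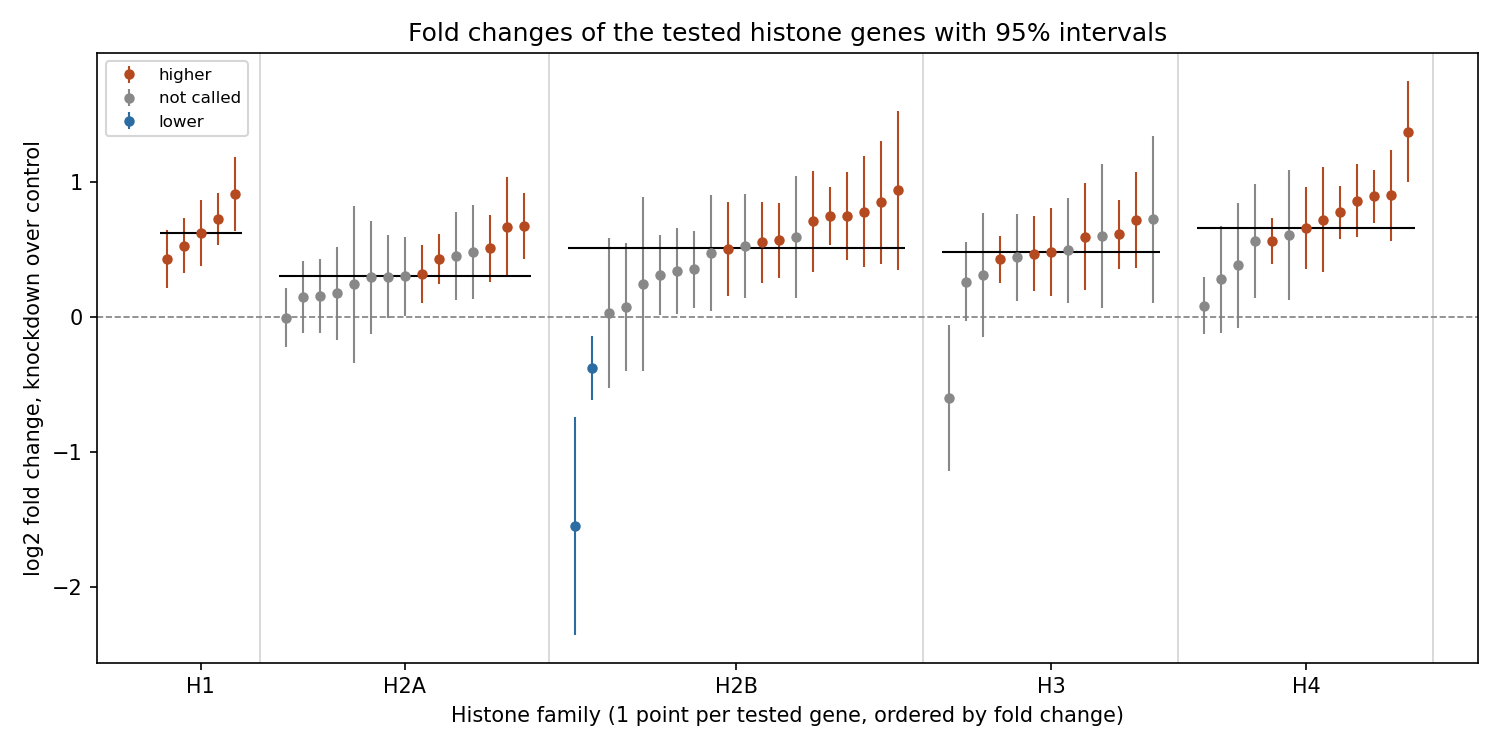
Log2 fold changes (knockdown over control, vertical axis) of the 66 tested histone genes, grouped by family and ordered within it, with 95% confidence intervals and a black line at the family median. Red points were called higher and blue points lower; the medians lie between 0.30 for H2A and 0.66 for H4, and the blue points are the H2B pseudogenes HIST2H2BD and HIST2H2BC.

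Of the 6 linker histone genes, the 5 tested were called higher, against 11.1% of all tested genes, with a median log2 fold change of 0.62. HIST1H1B, which encodes H1.5, was the most abundant, at 333 and 306 RPKM in the controls and 449 RPKM in each knockdown library (log2 fold change 0.43 ± 0.09 SE, limma adjusted p = 0.022). HIST1H1C, the gene of H1.2, had 231 and 197 RPKM in the controls against 342 and 344 RPKM. HIST1H1E, the gene of H1.4, had 163 and 149 RPKM against 229 and 242 RPKM. In these 3 genes both knockdown values lay above both control values, which holds for 30.7% of all tested genes. The largest difference of the family was that of HIST1H1A, the gene of H1.1, which rose from 35.5 and 30.1 RPKM to 69.6 and 59.5 RPKM (log2 fold change 0.91 ± 0.11 SE, limma adjusted p = 0.00647). HIST1H1D, the gene of H1.3, rose from 67.5 and 69.0 RPKM to 125 and 112 RPKM. HIST1H1B and HIST1H1C lost their calls without either knockdown replicate, with the limma adjusted p of HIST1H1C at 0.0551 and 0.0574, and HIST1H1E lost its call without knockdown replicate 2. The sixth gene, HIST1H1T, encodes the testis linker histone and had 2 reads or fewer per library, so it was not tested.

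Among the core histones, H2A genes were the most abundant and had the lowest median log2 fold change, 0.30. Of 15 tested, 5 were called higher (against 11.1% of all tested genes), and both knockdown libraries exceeded both controls for 10 (against 30.7%). HIST2H2AA3 was the most abundant histone gene, with 529.6 and 491 RPKM in the 2 controls against 735 and 783 RPKM after knockdown (log2 fold change 0.51 ± 0.10 SE, limma adjusted p = 0.0212). Its copy HIST2H2AA4 had 396 and 301 RPKM against 403 and 412 RPKM and was not called (log2 fold change 0.17, limma adjusted p = 0.396). Taken as a sum, the copies held 514 and 439 CPM in control cells against 631 and 662 in knockdown cells, a ratio of 1.36. HIST2H2AC rose from 434 and 389 RPKM to 676 and 695 RPKM, the largest log2 fold change among the H2A genes (0.67 ± 0.10 SE, limma adjusted p = 0.00951). Its neighbour HIST2H2AB was about as abundant in the controls and was not called: it had 461 and 434 RPKM in the controls, compared with 458 and 472 RPKM after knockdown. Its log2 fold change was -0.01, with a 95% interval from -0.23 to 0.21, and its sign changed with the scaling (0.06 with deposited RPKM, 0.02 with median-of-ratios factors). The interval of HIST2H2AC ran from 0.43 to 0.92, and the difference between these neighbours was not tested. Without either knockdown replicate the calls of HIST2H2AA3 and HIST2H2AC were lost, with log2 fold changes between 0.46 and 0.70 (limma adjusted p from 0.0568 to 0.158).

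**Figure D3:**
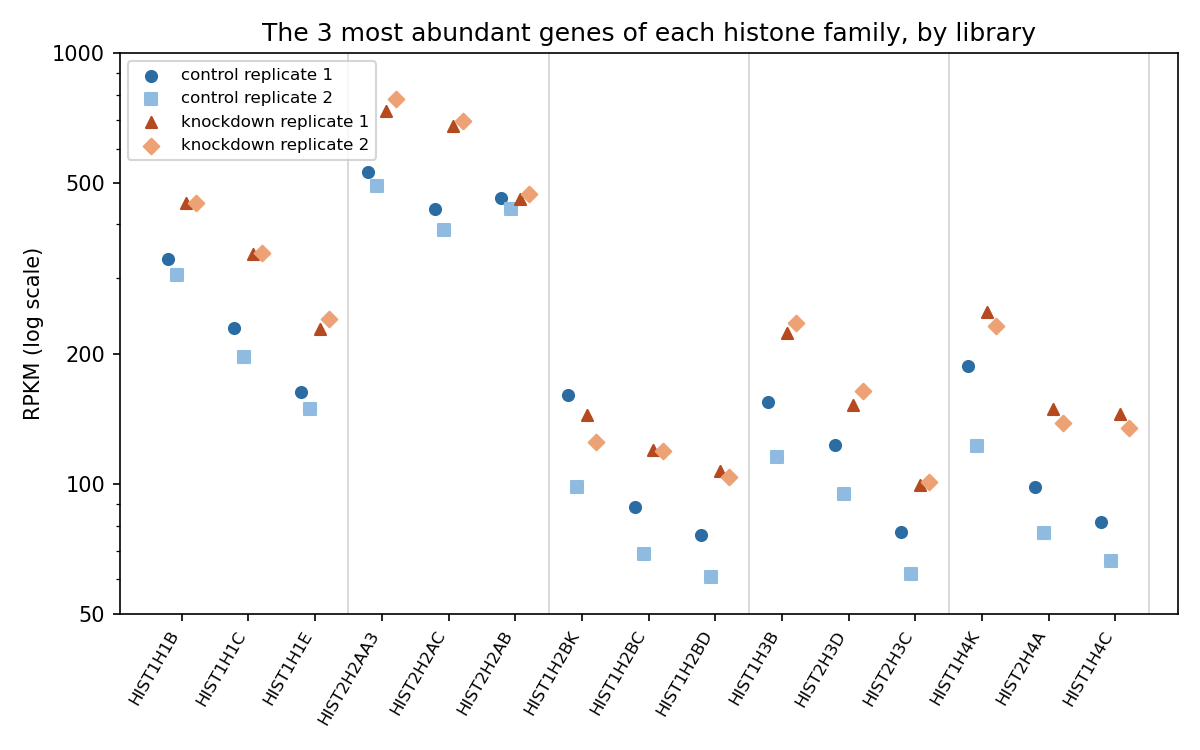
RPKM on a log scale (vertical axis) of the 3 histone genes with the highest mean level in each family (horizontal axis), 1 point per library. Knockdown points lie above control points for 13 of the 15 genes; HIST2H2AB and HIST1H2BK are the exceptions, with overlapping groups.

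H2B genes held fewer reads than H2A genes, and their log2 fold changes ranged more widely (-1.55 to 0.94, against -0.01 to 0.67). Of 20 tested, 9 were called higher and 2 lower, beside 11.1% and 13.8% of all tested genes, with a median log2 fold change of 0.52. HIST1H2BK was the most abundant, and its controls differed more from each other than from the knockdown libraries: 160.3 and 98.4 RPKM in the controls, 144 and 125 RPKM in the knockdown libraries (log2 fold change 0.03, 95% interval -0.53 to 0.59). HIST1H2BC rose from 88.4 and 68.7 RPKM to 120.1 and 119 RPKM, and HIST1H2BD from 76.2 and 60.8 RPKM to 107 and 104 RPKM. HIST1H2BI, at lower level, had the largest increase of the family, from 11.5 and 6.81 RPKM to 16.7 and 18.9 RPKM (log2 fold change 0.94 ± 0.24 SE, limma adjusted p = 0.0398). HIST1H2BC, HIST1H2BD and HIST1H2BI were not called without knockdown replicate 1 or without knockdown replicate 2.

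The genes called lower were HIST2H2BD and HIST2H2BC, which GENCODE lists as pseudogenes and which lie beside HIST2H2AA3 and HIST2H2AA4. HIST2H2BD fell from 9.41 and 8.25 RPKM to 4.47 and 2.12 RPKM, or from 85 and 80 reads to 28 and 12 (log2 fold change -1.55 ± 0.32 SE, limma adjusted p = 0.0248). HIST2H2BC fell from 20 and 17.4 RPKM to 15.7 and 14.2 RPKM (log2 fold change -0.38 ± 0.10 SE, limma adjusted p = 0.0398). In both genes the knockdown values lay below the control values, as in 36.9% of all tested genes. As a sum they held 16.3 and 14.1 CPM in the 2 controls against 11.3 and 9.31 after knockdown. The call of HIST2H2BC was lost under total-read and median-of-ratios scaling, with limma-voom and without control replicate 1 or either knockdown replicate (limma adjusted p from 0.0532 to 0.159). HIST2H2BD lost its call without either control replicate (limma adjusted p = 0.103 and 0.0873). The pseudogenes HIST2H2BA and HIST2H2BB, also on chromosome 1, were called higher (log2 fold changes 0.78 and 0.85), and 51.1% of the exons of HIST2H2BB overlap another gene on the same strand.

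H3 genes had a median log2 fold change of 0.49, with 6 of 13 tested called higher, against 11.1% of all tested genes. The 6 include HIST1H3J, whose value cannot be told from that of the H2A gene HIST1H2AM. HIST1H3B, the gene of an H3.1 protein, rose from 155 and 115 RPKM to 224 and 236 RPKM (log2 fold change 0.72 ± 0.14 SE, limma adjusted p = 0.0217), and it was the most abundant H3 gene. HIST2H3D had 123 and 94.7 RPKM in control cells against 152 and 164 RPKM in knockdown cells, and HIST2H3C had 77.3 and 61.7 RPKM against 99.2 and 101 RPKM. HIST2H3A, the copy of HIST2H3C, had 78.2 and 61.5 RPKM against 85.5 and 88.3 RPKM and was not called. The sum of these copies went from 258 and 204 to 306 and 313 CPM, a ratio of 1.34. HIST1H3B, HIST2H3C and HIST2H3D were not called without either knockdown replicate, nor was HIST2H3D without control replicate 2. The highest estimate, 0.72 for the pseudogene HIST2H3DP1 (8.14 and 4.65 RPKM against 11.2 and 10.2 RPKM), did not pass (limma adjusted p = 0.0855). HIST1H3E had the lowest, -0.60, from 0.509 and 0.665 RPKM against 0.411 and 0.325 RPKM, and did not pass either (limma adjusted p = 0.0958). It had only 25 and 35 reads in the controls against 14 and 10 after knockdown. It was the only tested histone gene outside the H2B pseudogenes in which both knockdown libraries lay below both controls. That order was present in 36.9% of all tested genes.

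The H4 genes had the highest median of the families, 0.66, and 8 of 13 tested were called higher, against 11.1% of all tested genes. HIST1H4K was the most abundant, at 188 and 122 RPKM in the controls, compared with 251 and 232 RPKM after knockdown and was not called (log2 fold change 0.61 ± 0.19 SE, limma adjusted p = 0.073). With its copy HIST1H4J it held 59.997 and 39.2 CPM in control cells against 79.9 and 74.0 CPM, a ratio of 1.55. HIST2H4A rose from 98.2 and 76.9 RPKM to 149 and 138 RPKM, and with its copy HIST2H4B it went from 188 and 147 to 284 and 263 CPM. Its call was lost without knockdown replicate 1. HIST1H4C rose from 81.6 and 66.3 RPKM to 145 and 135 RPKM (log2 fold change 0.86 ± 0.11 SE, limma adjusted p = 0.00697). HIST1H4L had the largest log2 fold change of all 66 tested histone genes, 1.38 ± 0.15 SE (limma adjusted p = 0.00571), from 38.1 and 27.7 RPKM to 93.1 and 83.9 RPKM. HIST1H4D (log2 fold change 0.90), HIST1H4E (0.89) and HIST1H4H (0.78) were also called higher. HIST1H4I had the lowest log2 fold change of the tested H4 genes, 0.08, at 13.7 and 12.1 RPKM in the 2 controls against 14.3 and 14.2 RPKM after knockdown (95% interval of the log2 fold change -0.13 to 0.29).

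Core histone genes are known for promoters with shared short elements, and the 250 bases before the start site were taken from RefSeq (GRCh38.p14) for the 63 of 74 genes that have an entry, 67 windows in all since 4 genes have 2 each. Motifs were searched on both strands. The CCAAT box, which the factor NF-Y binds, was present in 58 of 67 windows (86.6%) against 32% of 35116 windows of all genes. It was present in 6 of 6 H1, 15 of 15 H2A, 20 of 20 H2B, 14 of 14 H3 and 3 of 12 H4 windows. The octamer ATTTGCAT, bound by OCT1, was present in 15 of 20 H2B and 10 of 15 H2A windows against 1.63% of all windows, and in none of the H1 or H4 windows. Its match in 1 of 14 H3 windows was in 1 of the 2 windows of HIST1H3D, which is also the window of the H2A gene HIST1H2AD. TATAAA was present in 44 of 67 windows (65.7%, against 10.7% of all). The sequence AAACACA, known from H1 promoters, was present in the 6 H1 windows, in none of the other families' windows and in 4.82% of all windows. The 4 windows below were chosen as those of the most abundant histone gene, the H2A gene with the largest increase, the H1 gene with the largest increase and the gene with the largest increase of all. They are printed 5′ to 3′ on the strand of the gene, with matches on either strand in capitals.
HIST2H2AA3 (minus strand, chr1:149842751-149843000): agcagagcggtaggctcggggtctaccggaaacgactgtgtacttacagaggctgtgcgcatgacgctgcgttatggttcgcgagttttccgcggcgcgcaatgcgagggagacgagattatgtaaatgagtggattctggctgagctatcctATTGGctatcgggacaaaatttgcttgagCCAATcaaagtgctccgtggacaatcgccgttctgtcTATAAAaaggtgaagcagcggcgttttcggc
HIST2H2AC (plus strand, chr1:149886668-149886917): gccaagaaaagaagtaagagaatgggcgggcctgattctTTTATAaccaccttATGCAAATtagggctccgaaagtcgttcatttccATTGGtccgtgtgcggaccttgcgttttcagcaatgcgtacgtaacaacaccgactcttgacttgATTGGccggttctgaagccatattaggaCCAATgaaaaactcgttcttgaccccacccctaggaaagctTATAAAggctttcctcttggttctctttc
HIST1H1A (minus strand, chr6:26017788-26018037): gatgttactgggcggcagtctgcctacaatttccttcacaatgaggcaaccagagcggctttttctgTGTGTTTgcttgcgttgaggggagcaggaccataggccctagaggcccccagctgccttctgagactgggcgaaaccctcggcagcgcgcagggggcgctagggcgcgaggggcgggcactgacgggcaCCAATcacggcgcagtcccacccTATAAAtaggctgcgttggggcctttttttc
HIST1H4L (minus strand, chr6:27873535-27873784): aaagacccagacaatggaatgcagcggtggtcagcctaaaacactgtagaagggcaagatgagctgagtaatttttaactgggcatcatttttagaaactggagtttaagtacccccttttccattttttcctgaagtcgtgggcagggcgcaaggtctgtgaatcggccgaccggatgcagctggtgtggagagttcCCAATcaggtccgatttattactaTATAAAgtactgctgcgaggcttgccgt
These windows hold TATAAA near their downstream end with CCAAT upstream of it. The octamer is present in that of HIST2H2AC and, as these exact letters, not in that of HIST2H2AA3. HIST1H4L is 1 of the 3 H4 genes with CCAAT, beside HIST1H4F and HIST1H4I, and the last of these had the lowest log2 fold change of the tested H4 genes. A match is a description of the letters, and its part in expression was not tested.

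Many H2A and H2B genes stand head to head and share one such window between their starts. There were 13 such pairs with starts at most 500 bp apart, 12 of them of an H2A and an H2B gene, at distances from 218 to 356 bp. Over all pairs with both genes tested, the log2 fold changes differed by a median of 0.32 (range 0.03 to 2.06). These include the pair of the H3 gene HIST1H3J and HIST1H2BO. In the 11 tested pairs of an H2A and an H2B gene, the H2B gene had the higher value in 6. HIST2H2BE and HIST2H2AC rose together (0.75 and 0.67), and the printed window of HIST2H2AC lies between them. HIST1H2BJ and HIST1H2AG had nearly equal values (0.34 and 0.32). The widest differences were those of the pseudogenes, HIST2H2BD at -1.55 beside HIST2H2AA3 at 0.51, and HIST2H2BC at -0.38 beside HIST2H2AA4 at 0.17. Next came HIST1H2BK at 0.03 beside HIST1H2AH at 0.48. The differences within pairs were not tested.

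By location, 23 of 49 tested HIST1 genes and 9 of 16 HIST2 genes were called higher, with a median log2 fold change of 0.50 in both, and HIST4H4 was called higher (0.72). Of the non-histone genes within the HIST1 span whose exons do not overlap a histone gene, 2 of 17 tested were called higher and 2 lower, with a median log2 fold change of -0.10. Over all tested genes, 11.1% were called higher and 13.8% lower, with a median of -0.03. The 8 untested histone genes were HIST3H3, HIST3H2A, HIST3H2BB, HIST3H2BA, HIST1H2BA, HIST1H1T, HIST1H4F and HIST1H3G. All 4 HIST3 genes are among them, as are genes whose products are known from testis (HIST1H1T, HIST1H2BA and HIST3H3). The untested genes were measured at 0.833 RPKM or less in every library.

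**Figure D4:**
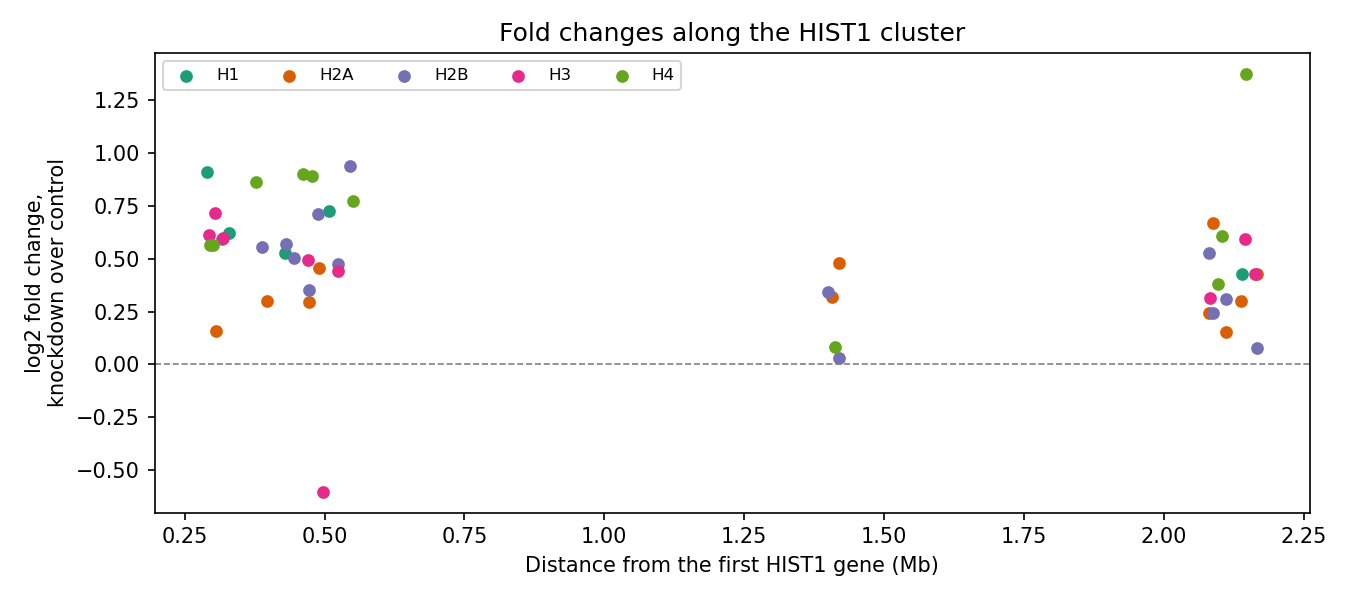
Log2 fold change (vertical axis) of the 49 tested HIST1 genes against distance in megabases from the first HIST1 gene (horizontal axis), coloured by family. Points above 0 are present in all 3 groups of genes along the cluster; the highest point is HIST1H4L at 1.38 and the only one below 0 is HIST1H3E at -0.60.

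The annotated exons reach far past the stem-loop in some genes, so that the value also covers sequence that the processed mRNA lacks. Leaving aside the 6 annotated pseudogenes, which include both genes called lower, exon models that run at least 100 bases past the stem-loop belong to 23 genes, of which 11 of 20 tested were called higher, with a median log2 fold change of 0.47. Among models of the coding part alone, 14 of 29 tested were called higher, with a median of 0.56. In the other 14 models, which hold an untranslated part, 6 of 12 tested were called higher, with a median of 0.48. Of the 19 tested genes with exons over 1000 bp, 10 were called higher (median 0.47), and of the 47 with shorter exons 23 were called higher and 2 lower (median 0.53). The shares over all tested genes were 11.1% higher and 13.8% lower.

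Within these long models, HIST2H2BF had 47.2 and 40.7 RPKM in control cells against 76.4 and 77.9 RPKM in knockdown cells, and HIST2H2BE had 45.3 and 34.2 RPKM against 68.8 and 70.0 RPKM. HIST1H4E went from 26.9 and 23.8 RPKM to 50.3 and 48.1 RPKM, HIST1H4H from 23.7 and 21.3 RPKM to 41.8 and 38.7 RPKM, and HIST4H4 from 8.20 and 6.10 RPKM to 13.3 and 11.3 RPKM. HIST1H2BG went from 19.7 and 14.5 RPKM to 31.0 and 27.2 RPKM. These 6 genes were called higher, HIST1H2BG not without knockdown replicate 1 and HIST4H4 not without control replicate 2 or knockdown replicate 1. HIST1H2AG (22.6 and 19.8 RPKM against 27.0 and 28.3 RPKM) and HIST1H2BE (5.36 and 4.41 RPKM against 7.98 and 6.59 RPKM) passed narrowly, with limma adjusted p values of 0.0475 and 0.0499, and lost the call when control replicate 2 or either knockdown replicate was left out. HIST1H2AC (24.5 and 19.3 RPKM against 28.9 and 27.2 RPKM), HIST1H2BF (31.2 and 24.8 RPKM against 38.0 and 36.2 RPKM) and HIST1H2BH (5.94 and 4.15 RPKM against 7.03 and 7.47 RPKM) were not called, although their groups did not overlap. The same holds for HIST1H2BN (7.32 and 5.97 RPKM against 8.97 and 8.24 RPKM) and HIST2H4B (1.67 and 1.34 RPKM against 2.00 and 1.85 RPKM). Both knockdown libraries lay above both controls in 30.7% of all tested genes. In HIST1H3H the groups overlapped, with 17.1 and 11.8 RPKM in the controls, compared with 20.4 and 16.7 RPKM after knockdown.

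The variant histone genes with polyadenylated mRNA moved in both directions. Of 21 listed, 18 were in the tables and 12 could be tested, with a median log2 fold change of -0.04. Among the 12, 2 were called higher and 3 lower, beside 11.1% and 13.8% of all tested genes. H1F0, the gene of the linker histone H1.0 that is typical of differentiated cells, rose from 76.3 and 92.2 RPKM to 156 and 149.7 RPKM (log2 fold change 0.80 ± 0.11 SE, limma adjusted p = 0.00819). H3F3B, one of the genes of the replacement histone H3.3, rose from 33.7 and 30.2 RPKM to 42.7 and 40.6 RPKM (log2 fold change 0.32), and H3F3A, another, had 29.3 and 29.8 RPKM against 34.8 and 34.0 RPKM and was not called. H3F3B lost its call without control replicate 2 or either knockdown replicate. CENPA, the gene of the centromeric H3 variant, fell from 9.25 and 8.29 RPKM to 6.15 and 5.48 RPKM (log2 fold change -0.65 ± 0.10 SE, limma adjusted p = 0.0115). H2AFX, the gene of the H2A.X variant that is phosphorylated at DNA breaks and is known to make both mRNA forms, fell from 49.5 and 43.0 RPKM to 35.2 and 36.3 RPKM (log2 fold change -0.43). H2AFZ, the gene of H2A.Z, fell from 38.1 and 34.3 RPKM to 29.5 and 30.0 RPKM (log2 fold change -0.34). H2AFX was not called without either knockdown replicate, and H2AFZ was not called under total-read scaling or without control replicate 1 or either knockdown replicate. H1FX, the gene of H1.10, had 70.0 and 68.7 RPKM against 76.0 and 77.6 RPKM (95% interval of the log2 fold change -0.07 to 0.24).

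**Figure D5:**
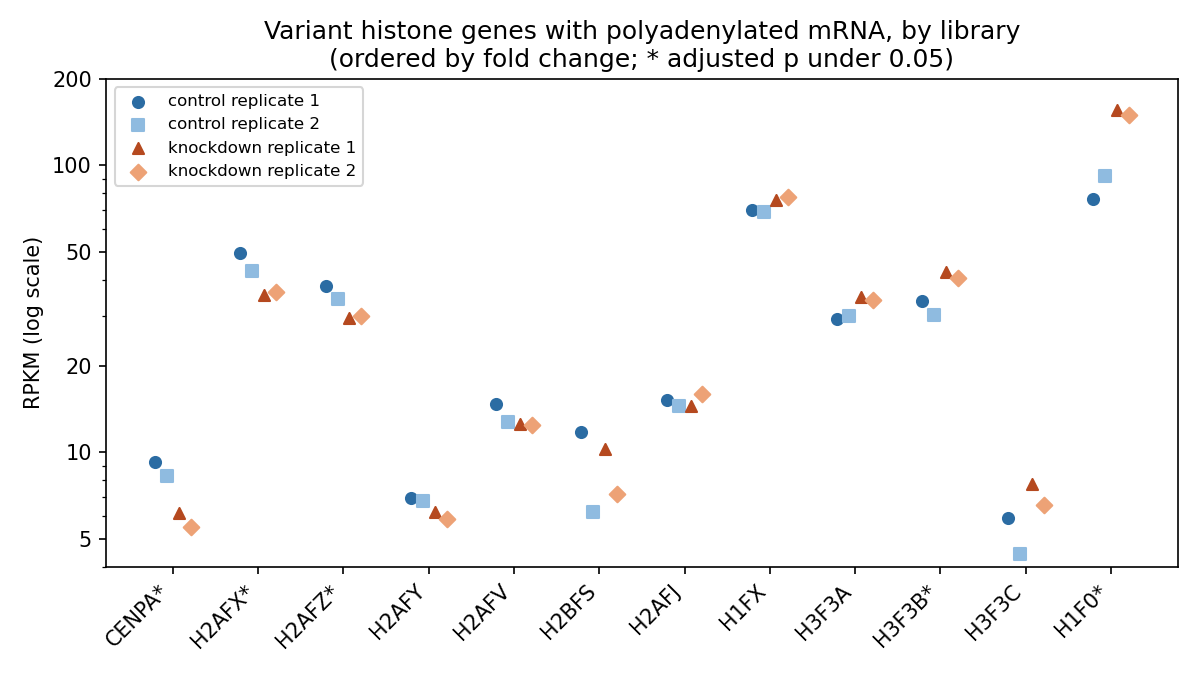
RPKM on a log scale (vertical axis) of the 12 tested variant histone genes with polyadenylated mRNA, ordered by log2 fold change (horizontal axis), 1 point per library. Knockdown points lie below the control points for CENPA, H2AFX and H2AFZ at the left and above them for H3F3B and H1F0 at the right; starred genes passed an adjusted p of 0.05.

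Of 30 tested factors that transcribe and process histone mRNA, 2 were called higher and 4 lower, beside 24.9% of all genes called in either direction, with a median log2 fold change of -0.04. SLBP had a log2 fold change of 0.16 (95% interval -0.03 to 0.35) and NPAT, the coactivator of histone gene transcription, of -0.17 (95% interval -0.44 to 0.09), and neither was called. UPF1, a helicase of nonsense-mediated decay that also takes part in histone mRNA decay, fell from 13.2 and 13.3 RPKM to 8.56 and 9.04 RPKM (log2 fold change -0.65 ± 0.08 SE, limma adjusted p = 0.00644). ZNF473, a U7 particle partner, fell by 0.43 on the log2 scale, NCBP1, a cap-binding subunit, by 0.36, and CPSF3, the endonuclease that cuts the 3′ end, by 0.35. The last 3 lost their calls when any 1 library was left out, NCBP1 and CPSF3 also under both other scalings. RNU7-1, the gene of the U7 RNA, was called higher at 5, 10, 11 and 9 reads per library, which is too few for a firm value; with limma-voom its adjusted p was 0.0871.

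Histone chaperones, which carry histones to DNA, included 3 genes called higher and 7 called lower of 26 tested (median log2 fold change -0.19). Over all tested genes, 11.1% were called higher and 13.8% lower. TONSL, a reader of newly made H4, fell from 11.5 and 11.2 RPKM to 6.83 and 7.03 RPKM, and IPO4, an importin of H3 and H4, from 13.8 and 12.4 RPKM to 8.20 and 8.55 RPKM. NPM1 rose from 135 and 136 RPKM to 191 and 186 RPKM, and NAP1L1, which binds H2A and H2B, from 24.6 and 23.0 RPKM to 33.7 and 30.9 RPKM. Both lost the call without either knockdown replicate, NAP1L1 also without control replicate 2. Genes of DNA replication in S phase, when replication-dependent histone mRNA is made, had mostly negative values, with a median log2 fold change of -0.26. Of 40 tested, 14 were called lower, beside 13.8% of all genes, and the other 26 were not called. POLE, which encodes the catalytic subunit of polymerase epsilon, fell from 8.19 and 7.99 RPKM to 4.45 and 5.10 RPKM, and the replicative helicase genes MCM6, MCM5 and MCM7 fell by 0.52, 0.50 and 0.44 on the log2 scale, MCM7 with no call left without knockdown replicate 1. The libraries hold bulk RNA, so a different share of cells in S phase and a different amount of histone RNA per cell cannot be told apart.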

How the data were processed

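The tables deposited by the authors hold 1 RPKM value per gene name. The submitters' processing notes list featureCounts, edgeR 3.12.1, Subread 1.5.1, Trimmomatic 0.36 and StringTie 1.3.2 as the authors' tools, without roles. Aligner, strand setting and treatment of molecular identifiers and multiply fitting reads are steps not given in the sources used here. Although the notes list mm9, a mouse build, 71 of 74 histone genes had the start and end of the human GRCh38 annotation (GENCODE), and coordinates are those of GRCh38. RPKM times exon length gave whole reads for 100% of values, within 0.01 of a read.

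RPKM was divided by TMM factors (0.984, 0.972, 1.03 and 1.02, from the recovered reads) and, after adding 0.1 and taking log2, was tested with limma (version 3.58.1, R 4.3.3). The spread was moderated along expression, group was the only term and adjustment was by Benjamini-Hochberg over 20221 genes. On this scale the changes of low genes are understated. Genes were tested with the equivalent of 10 reads in at least 2 libraries and at least 15 reads in all. Residual degrees of freedom were 2 and prior ones 3.56, so p-values lean on the pooled spread. The procedure was tested on simulated data. The members, lists and tests were chosen with earlier results of these data known. Values in every library are given for the 3 most abundant genes and those with the highest and lowest fold change of each family, genes called lower, genes with exons over 1000 bp, the 4 most abundant and all called polyadenylated variants, and up to 4 genes with the smallest adjusted p of the other lists. Promoters and stem-loops were read from RefSeq and GENCODE sequences. Alternatives changed the pseudocount, scaling, filter, test, exon-length trend and libraries.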

Additional observations from a re-analysis of the deposited data

How the results depend on the processing

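Calls rest on 2 libraries a group, and their number moved most with the libraries used and with the filter on low values (39306 genes with none). With no filter, 1806 genes in all were called in place of 5032, 8 histone genes in place of 35, 0 polyadenylated variants in place of 5 (limma; 8 of 18 at an unadjusted p under 0.05, and 6 with limma-voom on the filtered genes), 1 processing factor in place of 6, 3 chaperones in place of 10 and 5 S phase genes in place of 14. Leaving out each library in turn gave 2513 to 3218 calls in all, 13 to 52 histone genes, 1 to 2 processing factors, 2 to 5 chaperones, 5 to 8 S phase genes and 2 to 4 polyadenylated variants, the 2 without either knockdown replicate. The stricter filter gave 10 processing factors and limma-voom 12, while chaperones numbered 17 with limma-voom and 6 with the exon-length trend removed. The median log2 fold change of the histone genes lay between 0.31 and 0.65 over the fits that left out a library, and was 0.56 with total-read scaling, where the median of all genes was 0.03. Signs turned for HIST2H2AB (0.0572 with total-read scaling, 0.0163 with median-of-ratios factors, and from -0.0409 without control replicate 2 to 0.028 without control replicate 1) and HIST1H2BK (-0.0118 with the length trend removed, and from -0.31 to 0.3741 as each library was left out). They also turned without control replicate 2 for HIST2H2AA4 (-0.0141, up to 0.3629 as other libraries were left out), HIST1H4I (-0.0004, up to 0.1642), HIST1H2AI (-0.13, up to 0.6152), HIST1H2BM (-0.1551, up to 0.6444) and HIST1H2BO (-0.2154, up to 0.3658). The causes were not tested. The groups share replicate numbers, but same-numbered libraries deviated together with a correlation of only 0.06, so the numbers were not taken as pairs; with a replicate block, 43 histone genes were called and the median log2 fold change stayed at 0.50. Apart from limma-voom on the recovered reads, count-based tests intended as alternatives were not run, since the deposited unit is RPKM. Leaving out pseudogenes, genes with shared exons or genes with shared sequence, chosen after seeing the data, gave medians of 0.50, 0.54 and 0.53.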
